A study of Homo sapiens with 4 samples.

Results

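The MYC, MAX and MLX network was followed in AMO1, a human cell line grown from a plasmacytoma and studied as multiple myeloma in culture. The network was taken as 10 genes, namely MYC, MAX, MXD1, MXD3, MXD4, MXI1, MNT, MGA, MLX and MLXIP. They were chosen by gene name with earlier results of these data known, so counts over them are a description only. All 10 were among the 37247 gene rows of the deposited table. The cells were wild type and were kept for 6 h with periplocin, labelled as 0.2 mM, or with DMSO at 0.10%, the vehicle. Periplocin, from plants, belongs to the cardiac glycosides, steroids that inhibit the Na/K-ATPase. Each group held 2 libraries of total RNA from this single line, and the series asks how drugs of this class lower c-Myc.

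The proteins of this network are basic helix-loop-helix zipper factors that bind DNA in pairs at the E-box, the short site CACGTG. MYC pairs with MAX and activates genes of growth and biosynthesis, whereas MXD1, MXD3, MXD4, MXI1, MNT and MGA pair with the same MAX and repress through such sites, so they are called MYC antagonists here. MLX is the partner of a parallel arm: it pairs with MLXIP, also called MondoA, which activates genes in response to sugar phosphates, and it can also pair with MXD1, MXD4 and MNT. MYC is highly expressed in most multiple myeloma cells, which depend on it.

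The sites through which these factors act were looked for in RefSeq promoter windows on GRCh38.p14, each reaching from 250 bases before to 50 bases after an annotated gene start. The letters CACGTG, which read the same on both strands, stood in 7.26% of 35116 windows and in at least 1 window of 8.77% of 27305 genes. Windows were at hand for 9 of the 10 network genes, and 3 of these genes, MXD4, MNT and MLX, held the E-box. Their E-boxes began 238, 193 and 50 bases upstream of the start. The stretches around them are shown because the network's own factors can bind this site, with the E-box in capitals.
MXD4, chr4:2262322-2262359, minus strand: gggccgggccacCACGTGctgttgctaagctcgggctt
MNT, chr17:2401228-2401273, minus strand: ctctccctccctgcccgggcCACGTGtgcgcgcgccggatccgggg
MLX, chr17:42567030-42567075, plus strand: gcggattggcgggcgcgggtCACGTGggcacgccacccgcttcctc
The window of MXD1, the gene of the network with the largest positive fold change, held no CACGTG. This window follows the RefSeq start and lies inside the gene's longer span in GENCODE 29, 69897688 to 69942945, whose first bases were not searched. Its 250 bases before the start are shown with the GC box GGGCGG in capitals, a motif searched on both strands after the sequence had been seen and present in 45.0% of all windows.
MXD1, chr2:69914859-69915108, plus strand: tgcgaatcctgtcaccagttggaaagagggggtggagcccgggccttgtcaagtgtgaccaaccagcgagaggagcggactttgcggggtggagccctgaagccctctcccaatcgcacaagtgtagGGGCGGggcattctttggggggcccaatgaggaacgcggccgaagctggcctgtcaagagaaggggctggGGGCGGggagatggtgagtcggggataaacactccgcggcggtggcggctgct
The windows of MXD3, MXI1, MGA, MLXIP and MAX held no CACGTG either. A match or its absence describes these letters in these windows and says nothing of whether a factor was bound in AMO1 cells.

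Values are TPM, a measure of transcript abundance. They are corrected for transcript length and sum to the same total in each library, so levels of different genes can be set side by side. TPM keeps no record of depth, so no counting interval can be given. Whether replicates are separate cultures is not stated, so the p-values reflect the spread among these 4 libraries alone, possibly of technical origin. In bulk RNA, fewer cells that express a gene and less of its RNA per cell cannot be told apart. All 9 plasma cell markers examined had a mean of at least 1 TPM and summed to 10340 and 10830 TPM with periplocin and to 10380 and 10850 TPM with DMSO, most of it JCHAIN and SDC1. In the limma test described next, 5 of the 9 markers fell, against 18.9% of all tested genes, and none rose: PRDM1 (log2 fold change -0.98), POU2AF1 (-0.65), IRF4 (-0.60), XBP1 (-0.40) and MZB1 (-0.31). PRDM1, which encodes the plasma cell regulator BLIMP1, had 29.4 and 27.7 TPM with periplocin, against 55.3 and 59.0 TPM with DMSO. These markers fell along with MYC, and their part in the results below was not tested. Markers of B cells, T and NK cells, myeloid, stromal and erythroid cells summed to at most 7.44 TPM in any library and cell type, with the B cell markers MS4A1 and PAX5 below 0.1 TPM in every library. Periplocin was compared with DMSO by limma on log2(TPM + 1) over the 12947 genes with at least 1 TPM in at least 2 libraries, with Benjamini-Hochberg adjustment over all of them. Of all tested genes 10.4% were higher with periplocin at an adjusted p under 0.05 and 18.9% were lower. When DMSO replicate 1 or DMSO replicate 2 was left out, no gene of the table passed in limma, which ends every call below. Unadjusted p was then under 0.05 for 3925 and 4156 genes, where the full set of 4 libraries had 5585.

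With periplocin, the activator MYC fell, the antagonists MXD1, MXD3, MXD4 and MNT rose, and the shared partner MAX did not pass the test. Of the 10 genes, 4 were called higher and 1 lower, against 10.4% and 18.9% of all tested genes (29.3% in either direction). With median-of-ratios size factors, an alternative scaling of the libraries, 6 were higher and 1 lower, against 15.5% and 13.5% of all genes, MGA and MLXIP being added. Both were also added by quantile normalization, where 13.6% of all genes were higher and 13.6% lower, and by median centring, where 16.4% were higher and 12.0% lower. The libraries of both groups did not overlap for 6 genes that were higher and 2 that were lower with periplocin; over all tested genes this held for 25.4% and 43.4%, or 68.8% in either direction. Taken over every tested gene, the log2 fold change had a median of -0.14 as deposited and -0.01 with size factors, so the values below stand 0.14 further up when read against the median gene.

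**Figure D1:**
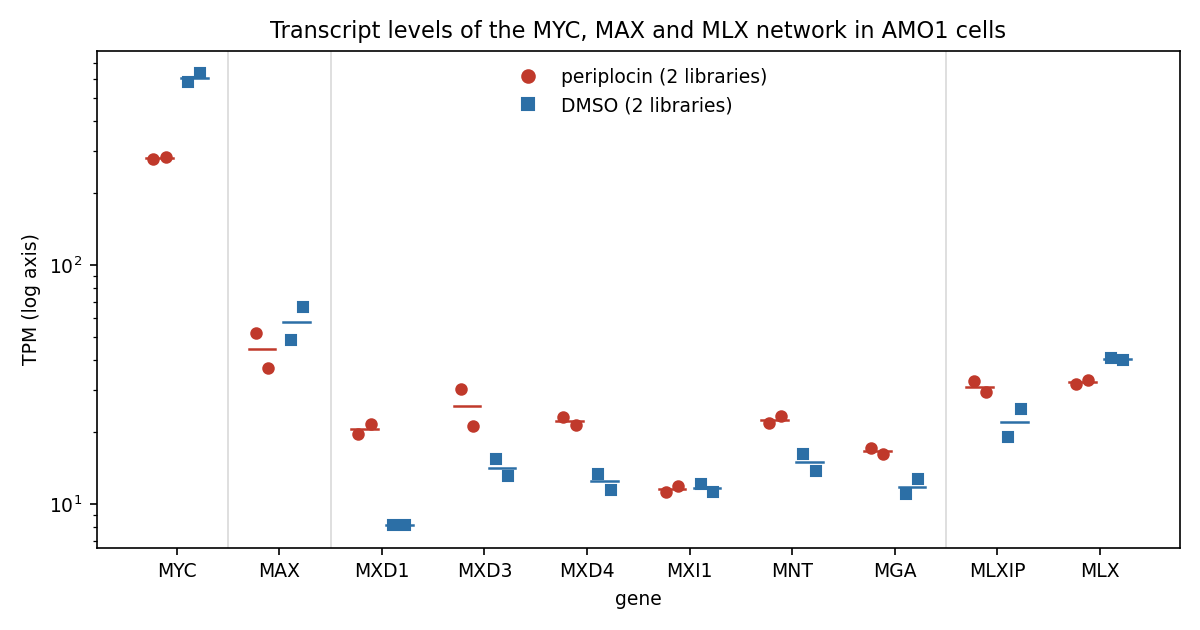
TPM (log axis) of the 10 network genes in each library, periplocin as red circles and DMSO as blue squares, with a line at each group's mean. MYC stands far above every other gene in both groups, at 278 and 282 TPM with periplocin and 578 and 631 TPM with DMSO, and MXD1 is the lowest gene with DMSO but not with periplocin.

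MYC, which encodes the activator c-Myc (gene ENSG00000136997.17, chromosome 8, 127735434 to 127741434 on GRCh38), had 278 and 282 TPM in the periplocin libraries, against 578 and 631 TPM in the DMSO libraries. The periplocin libraries nearly coincided and both lay far below the DMSO libraries. MYC fell, with a log2 fold change of -1.11 (SE 0.07, 95% interval -1.29 to -0.93; limma adjusted p = 0.00218), and its mean with periplocin was 0.463 of its mean with DMSO. Among all tested genes this fold change lay at the 6.57th percentile. Without DMSO replicate 1 the log2 fold change was -1.17 (limma adjusted p = 0.0976), and without DMSO replicate 2 it was -1.04 (0.0839). No other gene overlaps an exon of MYC in GENCODE 29. Even after its fall, MYC was the most abundant transcript of the network.

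MAX, the shared partner of MYC and of its antagonists (chromosome 14, 65006174 to 65102695), had 52.1 and 37.0 TPM with periplocin, against 48.6 and 66.4 TPM with DMSO. The groups overlapped, and the libraries within each group lay further apart, relative to their level, than for MYC or MXD1. Its log2 fold change was -0.36 with a 95% interval of -0.88 to 0.15 (limma adjusted p = 0.238), an interval that includes no change. With periplocin replicate 2 left out the value was -0.12, and with periplocin replicate 1 left out it was -0.60.

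Of the 4 measured members of the MXD family 3 were called higher, against 10.4% of all tested genes. MXD1 encodes an antagonist that is induced when myeloid and epithelial cells stop dividing (chromosome 2, 69897688 to 69942945). It had 19.6 and 21.6 TPM with periplocin, against 8.21 and 8.17 TPM with DMSO. Both periplocin libraries were far above both DMSO libraries, which were nearly the same. MXD1 shares 237 exon bases with SNRNP27 on the same strand. SNRNP27 had 48.8 and 54.8 TPM with periplocin, against 65.4 and 64.9 TPM with DMSO, the opposite order to MXD1. Its part in the value of MXD1 was not tested. MXD1 rose by 1.23 on the log2 scale (SE 0.15, 95% interval 0.85 to 1.61; limma adjusted p = 0.00550), which placed it at the 98.5th percentile of fold changes. Without DMSO replicate 1 the adjusted p was 0.0978 and without DMSO replicate 2 it was 0.0839, at log2 fold changes of 1.24 and 1.23.

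MXD4, a family member linked to the exit from the cell cycle (chromosome 4, 2247432 to 2262294), had 23.1 and 21.5 TPM with periplocin, against 13.4 and 11.5 TPM with DMSO. The groups were well apart relative to the spread within each. MXD4 rose by 0.80 (SE 0.15, limma adjusted p = 0.0151). This call was lost when any library was left out, with adjusted p of 0.0634 without periplocin replicate 2, 0.0767 without periplocin replicate 1, 0.102 without DMSO replicate 1 and 0.108 without DMSO replicate 2.

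MXD3, which in mouse is expressed in cells that are still dividing, around S phase (chromosome 5, 177301461 to 177312757), had 30.2 and 21.1 TPM with periplocin, against 15.4 and 13.1 TPM with DMSO. Periplocin replicate 1 stood apart from the other libraries, and even the lower periplocin library was above both DMSO libraries. MXD3 rose by 0.79 (SE 0.20, limma adjusted p = 0.0347). The adjusted p was 0.135 without periplocin replicate 1, 0.151 without DMSO replicate 1, 0.203 without DMSO replicate 2 and 0.0701 when the variance trend was not used. Of the annotated exon bases of MXD3, 926 are shared with RAB24 on the same strand and 1158 with PRELID1 on the opposite strand, so its value is uncertain. RAB24 had 18.0 and 17.8 TPM with periplocin, against 28.6 and 25.6 TPM with DMSO, the opposite order to MXD3, while PRELID1 had 430 and 408 TPM with periplocin, against 351 and 368 TPM with DMSO. Their part in the value of MXD3 was not tested.

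MXI1, also called MAD2, is the remaining measured member of the family (chromosome 10, 110207605 to 110287365). It had 11.2 and 11.9 TPM with periplocin, against 12.2 and 11.3 TPM with DMSO. The groups overlapped within a range of about 1 TPM. The log2 fold change was -0.02 with a 95% interval of -0.41 to 0.38 (limma adjusted p = 0.950), which does not reach the fold change of MXD1, MXD3 or MXD4. The sign of this small value turned to 0.12 with size factors, 0.20 with quantile normalization and 0.15 with median centring, none of which passed.

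MNT and MGA are large antagonists outside the MXD family. MNT, a broadly expressed repressor that shares its MAX partner with MYC in most dividing cells (chromosome 17, 2384060 to 2401118), had 21.8 and 23.3 TPM with periplocin, against 16.2 and 13.7 TPM with DMSO. MNT rose by 0.56 (SE 0.15, 95% interval 0.19 to 0.93; limma adjusted p = 0.0385). The call was lost without any library, with adjusted p of 0.107 without periplocin replicate 1, 0.151 without periplocin replicate 2, 0.120 without DMSO replicate 1 and 0.169 without DMSO replicate 2. It was also lost without the variance trend (0.0585). MNT was therefore called only with all 4 libraries, although its groups did not overlap. An antisense gene that shares 1065 exon bases with MNT was not analysed here.

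MGA carries a T-box as well as the helix-loop-helix zipper and is the scaffold of a Polycomb complex, PRC1.6 (chromosome 15, 41621224 to 41773081). It had 17.1 and 16.1 TPM with periplocin, against 11.0 and 12.7 TPM with DMSO. The groups did not overlap, but the log2 fold change of 0.46 (95% interval 0.07 to 0.84) did not pass as deposited (limma adjusted p = 0.0747). It passed with size factors, at 0.59 (adjusted p = 0.0358), with quantile normalization (0.0279) and with median centring (0.0298).

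**Figure D2:**
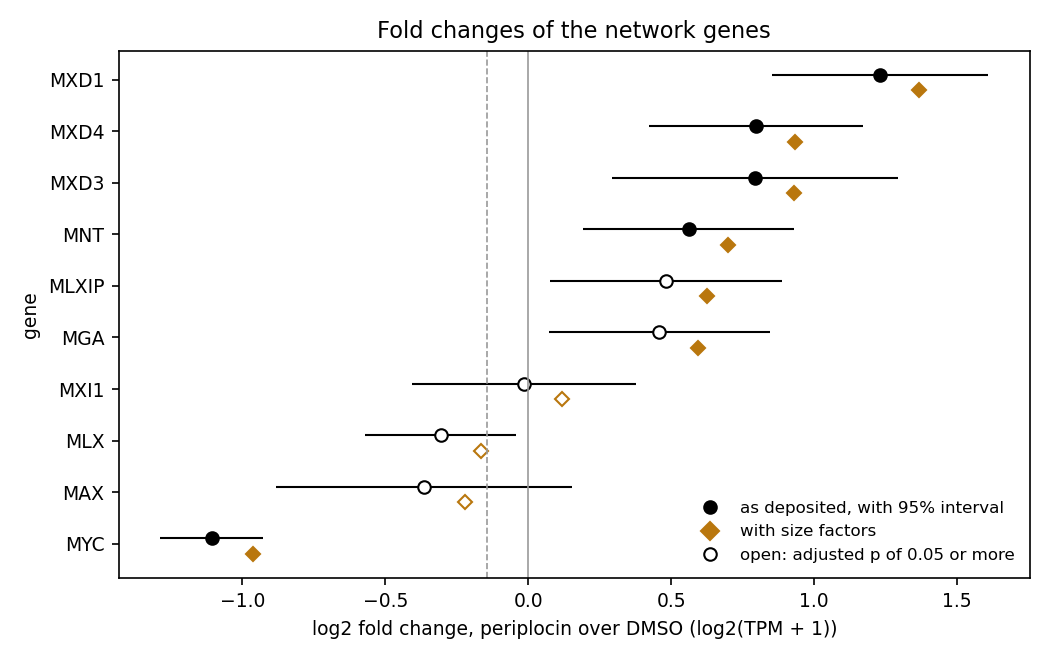
Log2 fold change of periplocin over DMSO for each network gene. Black circles are values as deposited with 95% intervals, diamonds are values with size factors, open symbols have an adjusted p of 0.05 or more, the dashed line is the median of all tested genes, and MYC at -1.11 and MXD1 at 1.23 mark the ends.

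No gene of the MLX arm passed the test as deposited. MLXIP, the sugar-responsive activator (chromosome 12, 122078722 to 122147347), had 32.6 and 29.4 TPM with periplocin, against 19.0 and 25.0 TPM with DMSO. The groups did not overlap, and DMSO replicate 1 was the lowest library. The log2 fold change of 0.48 did not pass as deposited (SE 0.17, limma adjusted p = 0.0744) and did with size factors, at 0.62 (adjusted p = 0.0355), with quantile normalization (0.0487) and with median centring (0.0303). Without DMSO replicate 1 it was 0.29 (limma adjusted p = 0.278).

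MLX, the partner in this arm (chromosome 17, 42567068 to 42573239), had 31.8 and 33.0 TPM with periplocin, against 40.8 and 39.9 TPM with DMSO. Both groups were tight and did not overlap, and the log2 fold change was -0.31 (95% interval -0.57 to -0.04; limma adjusted p = 0.0793). With size factors it was -0.17 (adjusted p = 0.288). MLX shares 770 exon bases with PSMC3IP on the opposite strand. PSMC3IP had 36.5 and 38.3 TPM with periplocin, against 25.4 and 26.6 TPM with DMSO, and its part in the value of MLX was not tested.

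The order of the levels differed between the groups. With periplocin the mean TPM ran from MYC through MAX, MLX, MLXIP, MXD3, MNT, MXD4, MXD1 and MGA down to MXI1. Neighbours from MLX to MXD1 in that order had overlapping libraries, while MAX stood above MLX, MGA below MXD1 and MXI1 below MGA without overlap. With DMSO the order was MYC, MAX, MLX, MLXIP, MNT, MXD3, MXD4, MGA, MXI1 and MXD1, and neighbours from MNT to MXI1 overlapped. MXD1 was thus the last of the 10 with DMSO and stood above MGA and MXI1 with periplocin.

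The MYC to antagonist ratio was taken within each library as the TPM of MYC over the summed TPM of MXD1, MXD3, MXD4, MXI1, MNT and MGA. It does not depend on how a library was scaled. It was 2.26 and 2.44 in the periplocin libraries, against 7.57 and 8.97 in the DMSO libraries, which means 2.35 ± 0.129 and 8.27 ± 0.992 (SD, n = 2 each). The groups were far apart relative to the spread within each. The log2 difference was -1.81, a ratio 3.51 times as high with DMSO. With an exact permutation test of a single value, 2 libraries against 2 could not go below p = 0.333, and no p is given for this ratio because its genes were chosen with earlier results known.

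Both parts of the ratio differed between the groups. MYC fell by 1.11 on the log2 scale, and the summed antagonists stood at 123.0 and 115.5 TPM with periplocin, against 76.4 and 70.4 TPM with DMSO, a log2 difference of 0.70. MXD1, MXD3 and MXD4 together made 72.9 and 64.2 TPM with periplocin, against 37.0 and 32.7 TPM with DMSO. MYC made up 69.3% and 70.9% of the transcripts of MYC plus antagonists with periplocin, against 88.3% and 90.0% with DMSO. MYC transcripts were thus still the larger part in every library.

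Pair by pair, the ratio of MYC to each antagonist was lower in both periplocin libraries than in either DMSO library. MYC over MXD1 was 14.2 and 13.1 with periplocin, against 70.4 and 77.3 with DMSO, and was the ratio that differed most. MYC over MXI1 was 24.8 and 23.7 with periplocin, against 47.6 and 56.0 with DMSO, and differed least. Within the antagonist sum, MXD1 took 15.9% and 18.7% with periplocin, against 10.8% and 11.6% with DMSO, while MXI1 took 9.12% and 10.3% with periplocin, against 15.9% and 16.0% with DMSO. No antagonist made up more than 24.6% of the sum in any library.

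MAX sets a limit on how many pairs with MAX can form at the protein level, which RNA does not measure. MXD1, MXD4 and MNT can also pair with MLX. MYC over MAX was 5.34 and 7.61 with periplocin, against 11.9 and 9.51 with DMSO, and the summed antagonists over MAX were 2.36 and 3.12 with periplocin, against 1.57 and 1.06 with DMSO. In all 4 libraries the summed antagonists had more transcripts than MAX, and MYC alone had over 5 times as many. These ratios carry the wide spread of MAX: the log2 difference of MYC over MAX was -0.74, and it ranged from -0.99 to -0.48 when each library was left out in turn. MLXIP over MLX was 1.02 and 0.890 with periplocin, against 0.467 and 0.628 with DMSO, with a log2 difference of 0.82 (0.60 to 1.03 with each library left out). The MLXIP transcript was thus about level with MLX with periplocin and below it with DMSO.

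**Figure D3:**
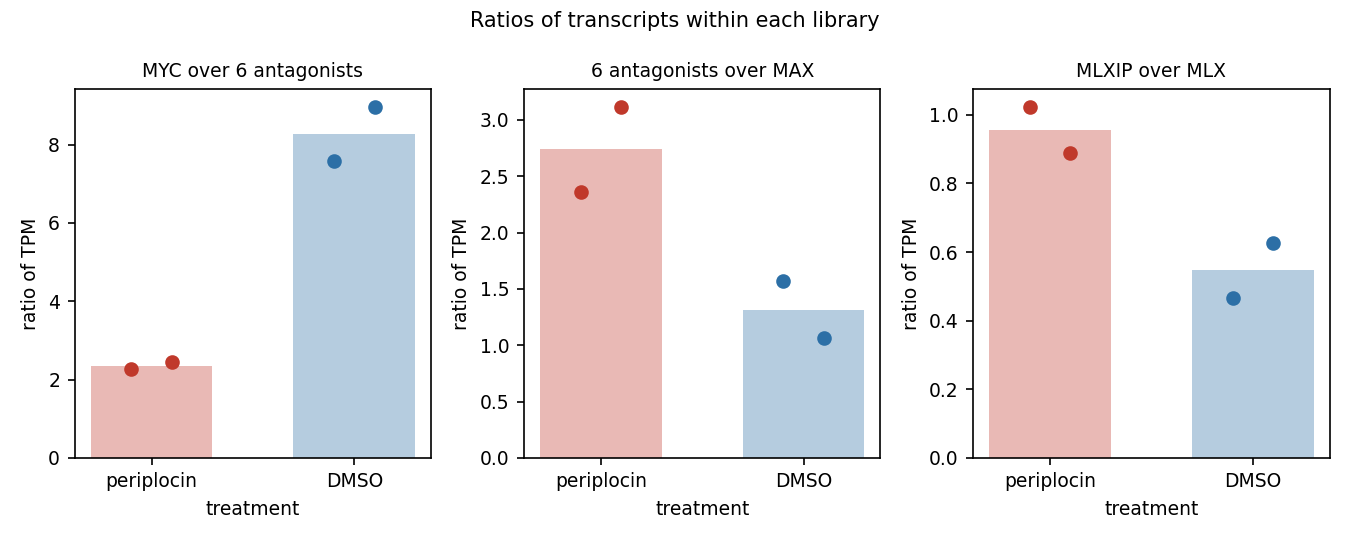
Ratios of TPM within each library: MYC over the 6 antagonists (left), the 6 antagonists over MAX (middle) and MLXIP over MLX (right). Bars are group means from 0 and points are libraries, periplocin in red and DMSO in blue. MYC over antagonists is 2.26 and 2.44 with periplocin, against 7.57 and 8.97 with DMSO.

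Paralogues of MYC and MLXIP were low or listed at 0. MYCN was listed at 0 in all 4 libraries. MLXIPL, the relative of MLXIP known from liver as ChREBP, was listed at 0 in 3 libraries and at 0.117 TPM in periplocin replicate 2. MYCL had 2.28 and 0.262 TPM with periplocin, against 0.971 and 0.627 TPM with DMSO. None of the 3 reached the level needed for the test.

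The MXD proteins and MNT recruit SIN3 with histone deacetylases. Of 15 tested SIN3 and NCOR complex genes 4 rose and 1 fell, against 10.4% and 18.9% of all tested genes. As deposited, the total in either direction was near the 29.3% called over all tested genes. With size factors 6 rose and 1 fell, against 15.5% and 13.5% of all tested genes. The list had a median log2 fold change of 0.07, against -0.14 over all tested genes. SIN3A, a scaffold that binds the MXD proteins, had 49.3 and 43.8 TPM with periplocin, against 29.3 and 26.8 TPM with DMSO (log2 fold change 0.71, limma adjusted p = 0.0111). SAP30 (0.68), SUDS3 (0.63) and ARID4B (0.61), which are further subunits of the SIN3 complex, rose. SIN3B, the second scaffold, named after its value was seen, had 20.1 and 19.8 TPM with periplocin, against 30.5 and 29.2 TPM with DMSO and fell (-0.56, limma adjusted p = 0.0218), so the scaffolds moved in opposite directions. The catalytic subunit HDAC1, also named after its value was seen, had 103 and 104 TPM with periplocin, against 98.4 and 100 TPM with DMSO (0.06, limma adjusted p = 0.613). Without periplocin replicate 1 the adjusted p was 0.0619 for SIN3A, 0.0580 for SAP30, 0.0569 for SUDS3 and 0.109 for ARID4B, and without periplocin replicate 2 SUDS3 (0.115) and ARID4B (0.186) did not pass either.

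MGA works with the other subunits of PRC1.6. Of 10 tested subunits 2 rose and 3 fell, against 10.4% and 18.9% of all tested genes, and with size factors 2 rose and 1 fell, against 15.5% and 13.5%, which is close to those shares. They had a median log2 fold change of -0.08. YAF2 (0.87) and RYBP (0.62), related proteins that take alternative places in Polycomb complexes, rose. L3MBTL2 (-0.64), which binds chromatin, and WDR5 (-0.51), an adaptor that also binds MYC, fell, and WDR5 did not pass with size factors (adjusted p = 0.0644). Without periplocin replicate 1 neither RYBP (0.0887) nor WDR5 (0.0705) passed, and without periplocin replicate 2 neither did RYBP (0.122), WDR5 (0.114) or L3MBTL2 (0.0742). Germline genes that PRC1.6 keeps silent stayed low: of 15 in the table only 3 reached the level for the test, and of these TDRKH fell (-0.82), although not with size factors (adjusted p = 0.0507). Without periplocin replicate 1 its adjusted p was 0.0565 and without periplocin replicate 2 it was 0.120.

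On the side of activation, MYC draws in acetyltransferase and chromatin remodelling complexes. Of 10 tested coactivators 1 was called higher and 3 lower (3 each with size factors), against 10.4% and 18.9% of all tested genes (15.5% and 13.5%), and their median was -0.07. KAT2A, the acetyltransferase also called GCN5, had 21.7 and 19.2 TPM with periplocin, against 42.4 and 39.0 TPM with DMSO and fell (log2 fold change -0.96, limma adjusted p = 0.00615). The helicases RUVBL1 (-0.76) and RUVBL2 (-0.67) fell, while the acetyltransferase CREBBP rose to 41.3 and 45.9 TPM with periplocin, against 20.1 and 20.7 TPM with DMSO (1.06). Without periplocin replicate 2 RUVBL1 did not pass (0.0698). Of 10 tested genes listed as other MYC-binding proteins 2 rose and none fell, against 10.4% and 18.9% of all tested genes. Their median was 0.14. The list is mixed, since MAZ, 1 of the 2 that rose, is described below by its binding near the MYC gene's start. The count therefore does not describe MYC-binding proteins alone. ZBTB17, or MIZ1, through which MYC represses, rose by 0.81. Its value rests on DMSO libraries that differed, at 27.7 and 17.0 TPM, and was 0.47 without DMSO replicate 2 (adjusted p = 0.157), 0.0976 in adjusted p without DMSO replicate 1, and 0.111 and 0.183 without periplocin replicates 1 and 2. MAZ, a zinc finger protein that binds near the MYC gene's start, rose by 0.28 and by 0.42 with size factors, and without periplocin replicate 1 its adjusted p was 0.138 and without periplocin replicate 2 it was 0.102.

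**Figure D4:**
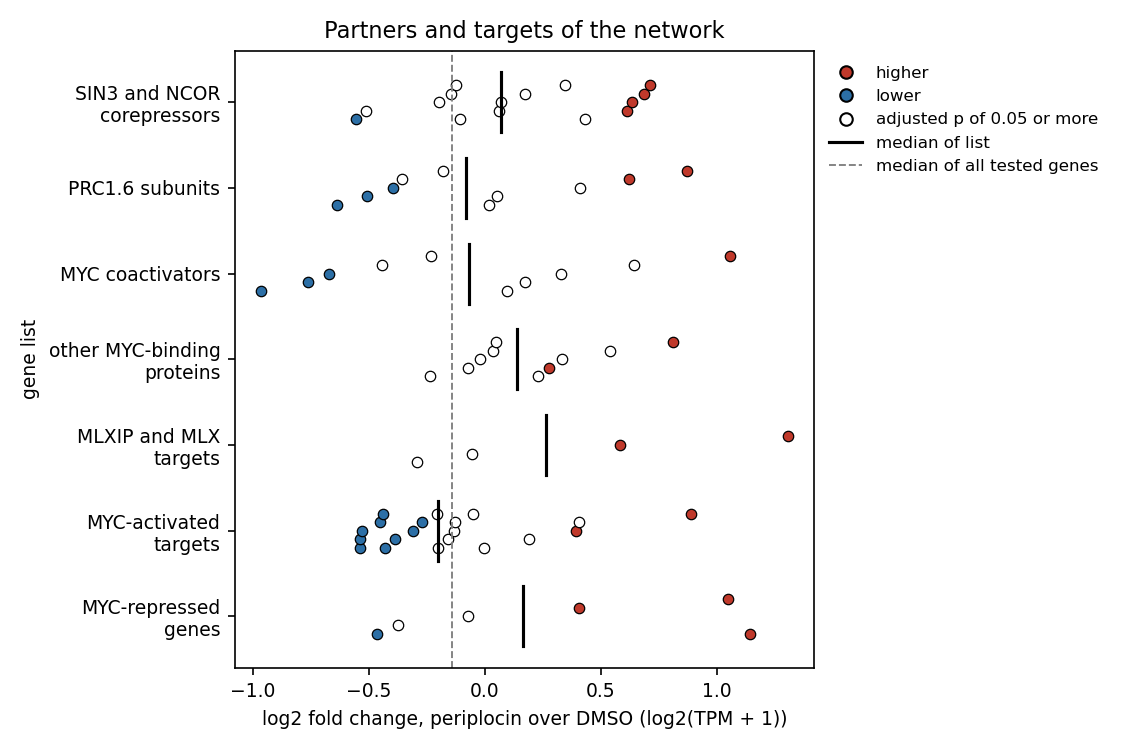
Log2 fold change of each tested gene in lists of partners and targets of the network, red where higher, blue where lower and open where the adjusted p was 0.05 or more. Vertical bars are list medians, the dashed line is the median of all tested genes, and vertical spread within a list only separates the points; the MYC-activated targets hold 9 lower and 2 higher genes.

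Among targets of the MLX arm, TXNIP, which restrains glucose uptake and is the best known MLXIP target, had 136 and 138 TPM with periplocin, against 53.6 and 56.0 TPM with DMSO. Both groups were tight and far apart, and TXNIP rose by 1.31 (SE 0.09, limma adjusted p = 0.00218). KLF10, a transcription factor, rose by 0.58, but not without periplocin replicate 1 (adjusted p = 0.0783) or without periplocin replicate 2 (0.123). HK2 and PFKFB3, enzymes of glycolysis named after their values were seen, stood at -0.06 and -0.29 and did not pass, and ARRDC4, the close relative of TXNIP, was listed at 0 in all libraries. So of 4 tested genes 2 rose and none fell, where 10.4% and 18.9% of all tested genes did. The TXNIP promoter is shown because it holds a tandem of E-box-like sites, found with a pattern added after the sequences had been seen: CACGNG, 5 bases of any kind and CACGNG again, searched on both strands. The capitals mark both sites, the first of which begins 88 bases upstream of the start. The pattern stood in 20 of 35116 windows, and the stricter tandem, with CACGTG at both places, in 2.
TXNIP, chr1:145996631-145996687, minus strand: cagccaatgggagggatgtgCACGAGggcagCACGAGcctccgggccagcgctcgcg

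Among 20 classic MYC-activated targets 9 fell and 2 rose, against 18.9% and 10.4% of all tested genes, with a median of -0.20, against -0.14. With size factors 4 fell and 4 rose and the median was -0.06, so the excess of lower genes was not seen with that scaling. ODC1, the first enzyme of polyamine synthesis, had 492 and 476 TPM with periplocin, against 682 and 724 TPM with DMSO and fell by 0.54 on the log2 scale (limma adjusted p = 0.00550). SRM, which acts further along the same pathway, fell by 0.53, and the DNA repair enzyme APEX1 fell by 0.54. These 3 also passed as lower with size factors, and APEX1 did not pass without periplocin replicate 2 (adjusted p = 0.0677). The phosphatase CDC25A moved the other way, with 92.5 and 95.3 TPM with periplocin, against 48.8 and 51.8 TPM with DMSO (0.89, limma adjusted p = 0.00408), as did the cell cycle kinase CDK4 (0.39), named after its value was seen. None of these falls was as large as that of MYC.

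The 20 targets had been listed as E-box targets, so the share of them with CACGTG is partly built in and is not a result. Promoter windows were at hand for 18 of the 20 targets, and 12 of the 18 held CACGTG, of which 6 fell and 1 rose. Of the 6 without it 2 fell and 1 rose. Among tested genes at large, 19.7% of 1216 with CACGTG and 19.5% of 8065 without it fell, and 13.1% and 10.9% rose, so the shares that fell were nearly equal. That wider comparison is void as a check, because a window was matched for 71.7% of the 12947 tested genes, below the 80% needed. The E-boxes of APEX1 and SRM before the start are shown, in capitals, as examples among the targets that fell. APEX1 carries 3 in the 250 bases before its start, the first 105 and the last 23 bases upstream.
APEX1, chr14:20455101-20455225, plus strand: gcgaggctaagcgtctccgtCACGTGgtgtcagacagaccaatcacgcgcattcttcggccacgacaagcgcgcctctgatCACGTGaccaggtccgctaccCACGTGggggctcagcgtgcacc
SRM, chr1:11060192-11060237, minus strand: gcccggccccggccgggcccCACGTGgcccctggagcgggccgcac

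Among 6 tested genes that MYC is known to repress, 3 rose and 1 fell, against 10.4% and 18.9% of all tested genes, and with size factors 3 rose and none fell, against 15.5% and 13.5%. The median was 0.17. CDKN1A, the cell cycle inhibitor p21, had 501 and 466 TPM with periplocin, against 229 and 209 TPM with DMSO and rose by 1.14 (SE 0.08, limma adjusted p = 0.00245). CDKN1A is also a p53 target. CDKN1B, or p27, rose by 0.41, and CDKN1C, or p57, rose by 1.05. Its levels were low, with 2.61 and 2.00 TPM with periplocin, against 0.537 and 0.647 TPM with DMSO. CDKN1C reached the level for the test through its periplocin libraries alone. Its rise was therefore favoured by the filter and adds no support to the count of 3. With a pseudocount of 0.1 the CDKN1C value was 1.79 (adjusted p = 0.0511). NDRG2 fell by 0.46 and did not pass with size factors (adjusted p = 0.0977). Without periplocin replicate 1 the adjusted p was 0.106 for CDKN1B, 0.145 for CDKN1C and 0.116 for NDRG2, and without periplocin replicate 2 it was 0.124, 0.0932 and 0.116.

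The genes whose pattern over the 4 libraries lay nearest to that of MYC were ANKRD34A, CPSF3, HSPH1, LANCL1 and POP1. Likeness was the Euclidean distance between centred log2(TPM + 1) values, over 9052 protein-coding genes with a mean of at least 5 TPM. The nearest, ANKRD34A, lay at 0.04 and the fifth, POP1, at 0.07. HSPH1, a heat shock protein, had 44.1 and 46.4 TPM with periplocin, against 93.9 and 105 TPM with DMSO, and CPSF3, the nuclease that cuts the ends of messenger RNA, had 114 and 117 TPM with periplocin, against 232 and 259 TPM with DMSO. Nearest to MXD1 were ZNF367, CRK, NUFIP2, SERINC5 and KLF6, at distances from 0.03 to 0.10. KLF6, a zinc finger transcription factor, had 57.5 and 60.7 TPM with periplocin, against 25.9 and 26.6 TPM with DMSO. With 4 libraries in 2 groups such likeness is mostly a like fold change, and it is given as a description only.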

How the data were processed

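RNA of AMO1 cells was sequenced as paired ends, per the labels' protocols. The authors deposited 1 table of TPM values for 37247 gene rows; columns written PP were read as periplocin. The submitters' processing notes list GRCh38 and DESeq2 but not what either was used for. The aligner, quantifier, annotation and strand use: not given in the sources used here. Symbols came from a current gene table (29235 rows matched) and positions from GENCODE 29 on GRCh38 (34620 rows matched).

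Genes with at least 1 TPM in at least 2 libraries (12947) were transformed to log2(TPM + 1) and compared by limma-trend (limma 3.58.1 under R 4.3.3). Tests were two-sided, p-values were adjusted over all of them by Benjamini-Hochberg, and the threshold was 0.05. Fold changes are on this scale, which shrinks those of low genes. Residual degrees of freedom were 2 and prior ones 4.01. The fit was also run on simulated data, in which far fewer genes changed than were called here. No error rate for these data is drawn from that run. Tables and plots were made in Python 3.11.15 with pandas 2.3.3 and matplotlib 3.10.9. Promoter sequences came from RefSeq (GRCh38.p14).

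The network genes, lists and tests were chosen with earlier results of these data known. Named were all network genes, from each list up to 4 called genes by size of change (where none was called, the 2 of highest mean TPM), and the 5 genes most like MYC and MXD1. Alternatives covered the pseudocount, the filter, the scaling, the variance trend, a replicate block and leaving out each library. RING1 was not analysed here.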

Additional observations from a re-analysis of the deposited data

How the results depend on the processing

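The MYC to antagonist ratio kept its direction in every alternative run: its log2 difference was -1.89 with the MXD family alone, -1.85 without MGA, -1.79 with a geometric mean, and -1.93 to -1.69 with each library left out. With no filter on low values 21232 genes were tested, of which 613 were higher and 1026 lower. Then 1 network gene (MXD1) was higher and 1 (MYC) lower, and 10 list genes were higher and 8 lower. The limma adjusted p was 0.114 for MXD3, 0.0507 for MXD4 and 0.0858 for MNT. The cause of these lost calls was not tested. The ranges of MYC over MAX and of MLXIP over MLX with each library left out were added after seeing the data. The lists held 15, 10, 3, 10, 10, 4, 20, 6 and 8 tested genes, and counts over them compare settings only. As reported, 19 list genes were higher and 18 lower, beside 10.4% and 18.9% of all tested genes. The lower list genes numbered 9 with size factors and 8 with median centring, beside 13.5% and 12.0% of all tested genes. With quantile normalization 17 were lower and 21 higher, beside 13.6% of all tested genes in each direction. Over all genes, median centring gave 2117 higher and 1553 lower, size factors gave 2012 and 1745, and the reported fit gave 1352 and 2443. Without the variance trend 876 of all tested genes were higher and 1932 lower, with 2 network genes higher, and 11 list genes higher and 8 lower. The cause was not tested. The MXI1 value changed sign with size factors (0.12), quantile normalization (0.20), median centring (0.15), without DMSO replicate 1 (0.0345) and without periplocin replicate 1 (0.0233), never passing; over the libraries left out it ranged from -0.0666 to 0.0345.

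With each library left out, which leaves a group with 1 library assumed to vary like the other, 0 to 522 genes were higher and 0 to 1142 lower, 0 to 2 network genes were higher and 0 to 1 lower, and 0 to 10 list genes were higher and 0 to 9 lower. The MYC log2 fold change ranged from -1.17 to -1.04. The replicate block, with the replicate number as a term, called 1685 genes higher and 2876 lower, 4 network genes higher and 1 lower, and 21 and 23 list genes. Same-numbered libraries share only a number (their deviations from the group means correlated at 0.03 across genes), and 1 named gene, ARID4B (adjusted p = 0.0547), lost its call under the block. Depth is unknown, so the precision of low values such as MYCL and CDKN1C cannot be stated.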

Other observations

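Basic helix-loop-helix zipper factors outside the network that also bind E-boxes were looked at beside it. Of 8 tested, 3 rose and none fell, against 10.4% and 18.9% of all tested genes, and with size factors 4 rose and none fell, against 15.5% and 13.5%. They had a median log2 fold change of 0.42, against -0.14 over all tested genes. USF1 had 85.2 and 79.2 TPM with periplocin, against 56.0 and 51.8 TPM with DMSO (0.60, limma adjusted p = 0.0103), and its relative USF2 rose by 0.46. SREBF2, the regulator of cholesterol synthesis, had 153 and 139 TPM with periplocin, against 105 and 104 TPM with DMSO (0.48). Without periplocin replicate 1 the adjusted p was 0.0581 for USF1, 0.0928 for USF2 and 0.0657 for SREBF2. None of the 9 genes of this list held CACGTG in its promoter window.

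TERT, the catalytic subunit of telomerase and a MYC-activated target, named after its values were seen, stood at 367 and 313 TPM with periplocin, against 375 and 309 TPM with DMSO, a level above that of MYC in the periplocin libraries, with a log2 fold change of -0.01 (95% interval -0.31 to 0.30).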
